A study of Nicrophorus vespilloides with 24 samples.

Results

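Locus_56531 and Locus_3293 are 2 contigs of the burying beetle *Nicrophorus vespilloides* whose best blast hits are proteins named takeout-like, and they are 2 of the 11403 loci counted in head RNA. They were chosen by that name, which rests on the blast hit alone, and each locus holds 1 scaffold. The best hit of Locus_56531 is the takeout-like protein of the pea aphid *Acyrthosiphon pisum*, and that of Locus_3293 is the takeout-like protein of the honey bee *Apis mellifera*. The names come from a gene table of the study that lists only loci its authors called in a caring comparison of these libraries, so a caring difference at either contig is not independent evidence of its direction. The scaffolds come from a transcriptome assembled without a genome, so no genome position is given.

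The study asked how gene expression in the head changes while beetles care for larvae, and whether the change differs between the sexes and between parents that care alone or with a mate. Heads of 10 beetles, all 21 days past adult eclosion, were pooled for each of 24 libraries, with 2 libraries in each of 12 groups. Control beetles were mated and never given a carcass, beetles scored as caring were taken from a mouse carcass near their larvae, and post-caring beetles had deserted after a period of care. Beetles of every stage, caring ones included, then spent a day alone before their heads were taken. Uniparental beetles had lost their mate by removal, biparental pairs stayed together, and each social condition had control and post-caring groups of its own. All groups share 1 wild origin and the same age in the labels, which name no allele or drug. The labels call the tissue brains, whereas the methods describe whole heads with brain, fat body and connective tissue.

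Takeout proteins are small secreted insect proteins that share a fold with juvenile hormone binding proteins and can carry hydrophobic molecules. In *Drosophila*, takeout is under the control of the circadian clock, responds to starvation and affects feeding, and the fat body around the male brain secretes it in support of courtship. Juvenile hormone itself is a lipid hormone that insects use in reproduction and behaviour, and burying beetles are known for its changes around breeding.

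Library totals were between 14647691 and 23906173 counts. Levels are given as CPM, the field's usual scaled counts, after each library total was multiplied by its TMM factor, which sets the libraries to a common scale. Both contigs were rare, with 540 counts of Locus_56531 and 195 of Locus_3293 over all 24 libraries, so depth limits what can be said of either. Log2 fold changes are given with their standard errors and were tested with edgeR's quasi-likelihood test over 9648 loci, and a locus was called where its Benjamini-Hochberg adjusted p in that comparison was under 0.05. Ratios of CPM pooled over a group's libraries have 95% intervals that cover counting error only. Whether the 2 pools of a group came from separate broods is not stated, so the p-values measure the spread between pools of heads.

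Fat body products, muscle genes and genes of neurons and photoreceptors were all detected at every stage, so the heads held more than brain. The 14 loci of fat body products, such as vitellogenin and hexamerin, took between 5.571 and 39.56% of counts in females and between 0.05295 and 0.8359% in males. Between uniparental and biparental libraries, 37.3, 39.2 and 40.5% of loci were called in control, caring and post-caring females, and 41.9, 46.8 and 43.6% in control, caring and post-caring males. The social condition therefore cannot be told apart from anything else that differed between the 2 sets of libraries. In post-caring biparental females the 2 libraries stood apart, and their results are given with and without replicate 2. In bulk heads, fewer cells of a type and less RNA per cell cannot be told apart.

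Locus_56531 was almost absent from the heads of caring beetles. The 8 caring libraries held 1 count in all, and 7 of them held none, against 418 counts in the 8 control libraries and 121 in the 8 post-caring libraries. Summed over sex and social condition, this put the level during caring 566-fold below control (95% interval 101 to 22426) and 132-fold below post-caring (23.2 to 5257). Of the 418 control counts, 275 came from biparental females and 10 from uniparental males, so the control sum weights the groups unevenly. Of the 121 post-caring counts, 79 came from biparental female replicate 2. Without that library the level during caring was 50.5-fold below post-caring (8.58 to 2041). Locus_3293 was lower during caring but not absent, with 21 counts in caring libraries, against 94 in control and 80 in post-caring libraries. Its pooled level during caring was 6.07-fold below control (3.75 to 10.3) and 4.16-fold below post-caring (2.54 to 7.08). The sums weight each library by its depth and show no spread between libraries, which the comparisons within sex and social condition use.

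**Figure D1:**
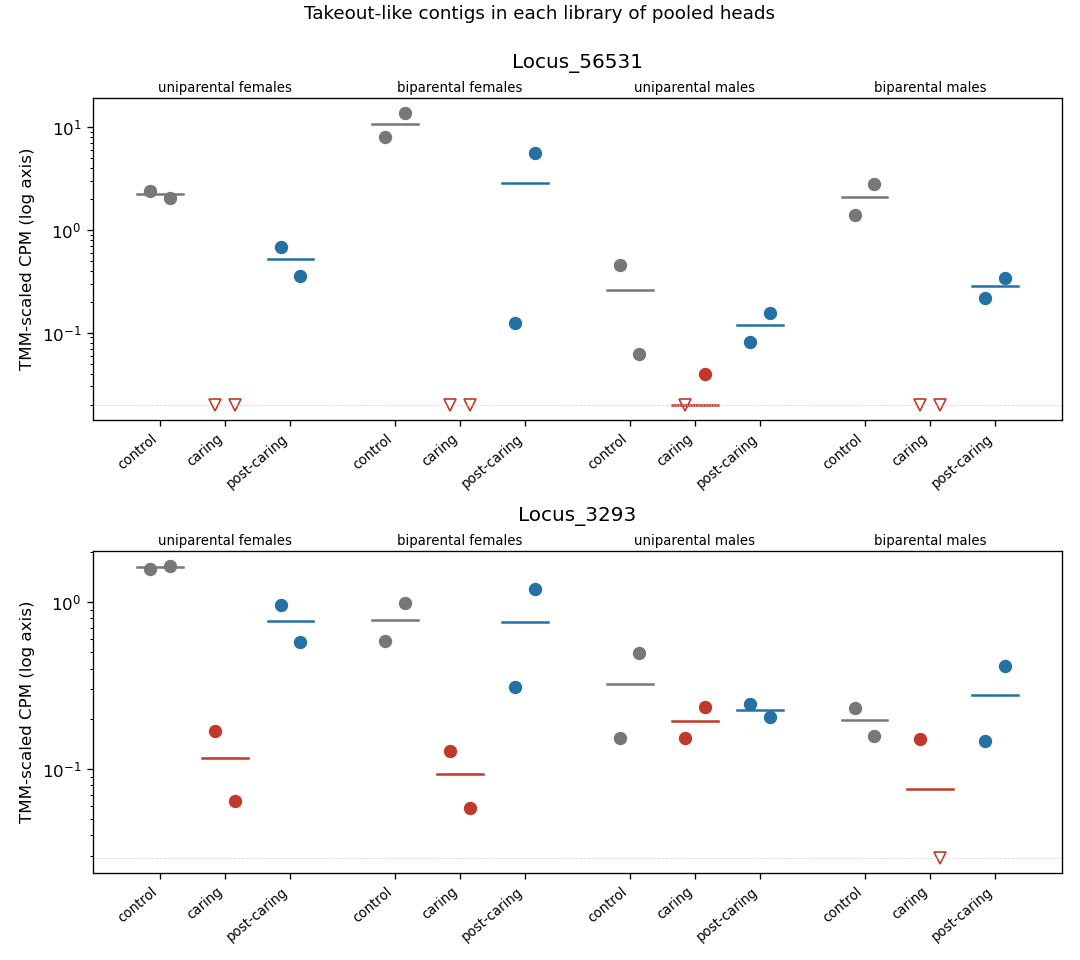
Level of each contig in each of the 24 libraries, as TMM-scaled CPM on a log axis, by group; points are libraries, bars are means of 2 libraries and open triangles are libraries without a count, drawn at the dotted line because a log axis has no 0. Locus_56531 had 7 open triangles among the 8 caring libraries, and Locus_3293 had 1.

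In biparental females Locus_56531 had no count in either caring library, against 108 and 167 counts in the control libraries and 2 and 79 in the post-caring libraries. The control libraries held 7.93 and 13.7 CPM, the highest levels of the contig in the series. For a limit, a group sum of 0 was set to 3 counts, about its upper 95% limit from counting error. Limits of this kind leave out the counting error of the other group and the spread between libraries. By this limit, caring biparental females were at least 116-fold below their controls (edgeR adjusted p = 0.00399). That comparison called 7.93% of the loci tested, and 2.92% as lower, and 27.5% of loci were lower without overlap. The same caring libraries were at least 29.2-fold below post-caring biparental females (adjusted p = 0.0426), where 2.94% of loci were called and 20.4% were lower without overlap. The call against post-caring females rested on their replicate 2, which held 79 of the 81 counts, and without it the adjusted p was 0.442. That call was also lost without either caring library, at adjusted p 0.166 and 0.206, and with the biparental libraries fitted alone, at adjusted p 0.188.

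In uniparental females Locus_56531 again had no count in either caring library, against 45 and 35 counts, or 2.39 and 2.06 CPM, in the controls. Caring uniparental females were at least 40.7-fold below controls (adjusted p = 0.0112) in a comparison that called 11.2% of loci, and 7.55% as lower. With either caring library left out the adjusted p was 0.0821 or 0.0849, so the call needs both of them. Post-caring uniparental females held 19 and 8 counts, and caring females were at least 9.77-fold below them (edgeR unadjusted p = 0.0165). That difference was not called after adjustment by the quasi-likelihood test. It was called by the likelihood ratio test and DESeq2 (adjusted p 0.00247 and 0.00865), which there called 11.1 and 9.93% of loci. Caring and control libraries did not overlap in either social condition of females, nor did 31% of all loci, lower during caring, in uniparental ones.

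Within each social condition, control males carried less of Locus_56531 than control females, which leaves less room to measure a lower level. Control biparental males still overlapped control uniparental females, at 2.39 and 2.06 CPM. Caring biparental males had no count in either library, against 18 and 35 counts (1.40 and 2.77 CPM) in controls, a level at least 19.2-fold lower. That difference was not called by edgeR (unadjusted p = 0.00343, adjusted p = 0.435). In that comparison 0.0207% of loci were called and 7.82% had an unadjusted p under 0.05. The likelihood ratio test and DESeq2 called the difference (adjusted p 0.00533 and 0.0342), where they called 0.29 and 0.246% of loci. Caring uniparental males had 0 and 1 count, against 9 and 1 in controls, a pooled ratio 14.4-fold lower with a wide counting interval of 2.05 to 624 (adjusted p = 0.402), where 5% of loci were called. The lone caring count came from replicate 2 at 0.0394 CPM, below the 0.457 and 0.0618 CPM of the controls. The groups did not overlap in any of the 4 caring comparisons with control, but 19.3 and 27.4% of all loci were also lower without overlap in the biparental and the uniparental male comparison.

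Against post-caring males, the caring males were again lower without being called. Post-caring biparental males held 3 and 5 counts, which put the caring males at least 2.62-fold below them (adjusted p = 0.639), with 0% of loci called and 18.8% lower without overlap. Post-caring uniparental males held 2 and 3 counts, for a ratio of 5.87-fold lower during caring (0.657 to 278, adjusted p = 0.775), with 3.63% of loci called and 27.9% lower without overlap. At so few counts a difference was not detectable between these groups of 2 libraries.

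Locus_3293 fell in caring uniparental females. The caring libraries held 4 and 2 counts, against 30 and 28 in controls and 27 and 13 in post-caring females. In CPM the caring libraries were at 0.169 and 0.0645, against 1.59 and 1.65 in controls, which were the highest levels of this contig. The log2 fold change from control was −3.79 ± 0.71 (14.8-fold lower, 6.38 to 41.9, adjusted p = 0.00267), and without caring replicate 2 the adjusted p was 0.0528. Against post-caring uniparental females it was −2.74 ± 0.74 (7.23-fold lower, 3.05 to 20.9, adjusted p = 0.0293), where 8.34% of loci were called and 30.2% were lower without overlap. That call was lost without either caring library or post-caring replicate 1, at adjusted p between 0.0975 and 0.275. The caring libraries lay below those of both other stages.

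In biparental females the same contig was lower during caring by about as much, but the test missed the threshold. Caring biparental females held 2 and 1 counts, against 8 and 12 in controls, a log2 fold change of −3.00 ± 0.91 (8.46-fold lower, 2.51 to 44.5, adjusted p = 0.0526). Post-caring biparental females held 5 and 17 counts, and the caring level was 7.93-fold below theirs (2.38 to 41.4, adjusted p = 0.0925). Without post-caring replicate 2 that log2 fold change was −1.69, against −2.92 with it, and without post-caring replicate 1 it was −3.58 and called (adjusted p = 0.0343). With the likelihood ratio test that the study states in place of the quasi-likelihood test, both differences were called, at adjusted p 0.00977 and 0.0198. That test called 10.8 and 4.95% of loci in these comparisons.

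Males showed no such fall of Locus_3293 that these counts could resolve. Caring uniparental males held 4 and 6 counts, against 3 and 8 in controls, and the groups overlapped (log2 fold change −0.67 ± 0.80, adjusted p = 0.693). The counting interval of that ratio ran from 4.15-fold lower to 1.64-fold higher. Caring biparental males held 2 and 0 counts, against 3 and 2 in controls (log2 fold change −1.35 ± 1.25, adjusted p = 0.821). Against post-caring males the caring change was −0.22 ± 0.81 when uniparental and −1.87 ± 1.15 when biparental (adjusted p 0.951 and 0.616), and both pairs of groups overlapped. Caring uniparental males had the highest mean of Locus_3293 among the caring groups, 0.195 ± 0.0593 CPM (SD, n = 2). Their libraries, at 0.153 and 0.237 CPM, overlapped those of caring uniparental females, at 0.169 and 0.0645 CPM. They also hold the only count of Locus_56531 during caring.

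**Figure D2:**
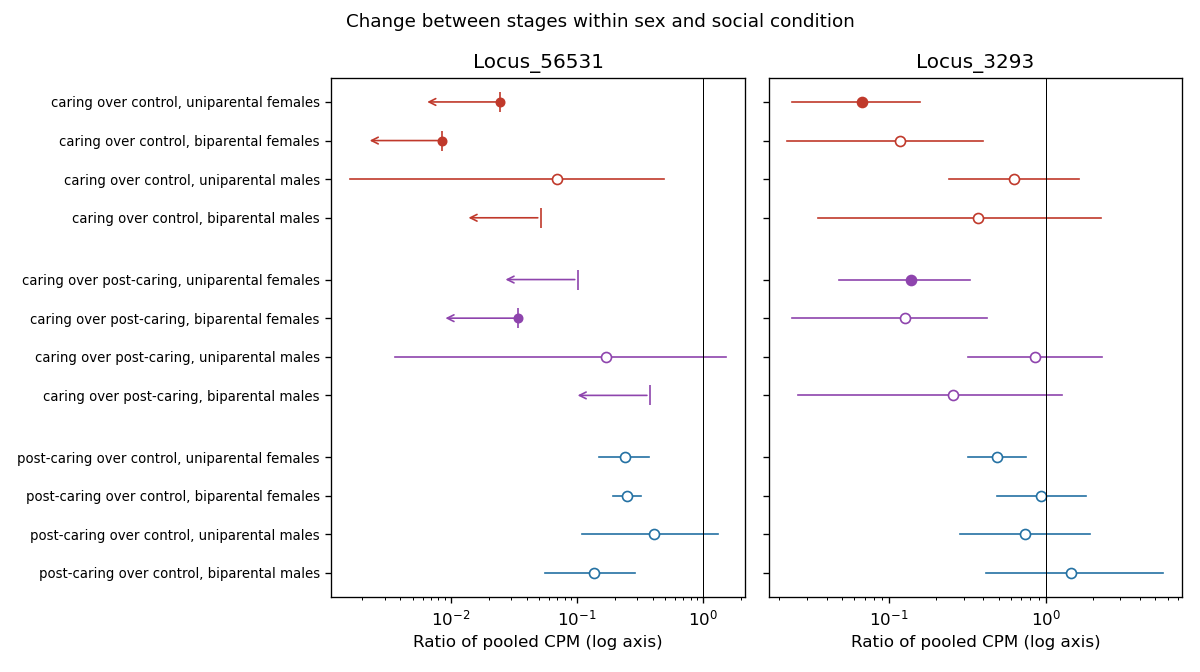
Ratio of pooled CPM between stages, on a log axis, for each sex and social condition and both contigs. Circles with bars are ratios with 95% counting intervals, and filled circles mark comparisons called by edgeR. Arrows start at the ratio given by a group sum of 0 set to 3 counts. For Locus_56531 every ratio of caring to control and to post-caring is below 1, whereas for Locus_3293 those of uniparental males lie close to 1.

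Whether the change with caring differs between the sexes or the social conditions was tested as a difference of changes. For Locus_3293 the caring change of females minus that of males was −3.12 ± 1.11 on the log2 scale when uniparental (adjusted p = 0.344) and −1.64 ± 1.77 when biparental (adjusted p = 0.91). Uniparental minus biparental differences were −0.79 ± 1.38 in females and 0.69 ± 1.45 in males (adjusted p 0.839 and 0.98), and the three-way difference was −1.48 ± 2.02 (adjusted p = 0.877). For Locus_56531 the caring levels of 0 leave no size to compare in 3 of these differences. The remaining differences, between the sexes when uniparental and between social conditions in males, had adjusted p-values of 0.84 and 0.953. At an unadjusted p under 0.05 in edgeR, 1 of 5 differences passed for Locus_3293, that between the uniparental sexes, where 8.99% of all loci passed. For Locus_56531, 0 of 2 passed. The likelihood ratio test called 0 of these 7, and DESeq2 called 0 of the 1 for which it gave an adjusted p, a difference of Locus_3293. Of all loci, 0.0311 and 0.0207% were called between the sexes when biparental and uniparental, 1.61 and 0% between social conditions in females and males, and 0% in the three-way difference. A call in females and none in males does not show that the sexes differ.

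After caring, Locus_56531 was present again but below control in every group mean. Of 4 post-caring differences from control, edgeR called 0, the likelihood ratio test 0, and DESeq2 0 of the 3 with an adjusted p. At an unadjusted p under 0.05 in edgeR, 2 passed, in biparental females and biparental males. There 16.3 and 11.7% of all loci passed. Post-caring biparental females held 0.124 and 5.59 CPM, against 7.93 and 13.7 in controls (log2 fold change −1.94 ± 0.83, adjusted p = 0.277), and without post-caring replicate 2 the change was −6.39. Post-caring uniparental females held 0.680 and 0.356 CPM, against 2.39 and 2.06 in controls (−2.06 ± 0.96, adjusted p = 0.676). Neither pair of groups overlapped, and 20.5 and 20.2% of all loci were also lower without overlap in these comparisons. Post-caring biparental males held 0.220 and 0.343 CPM, against 1.40 and 2.77 in controls (−2.85 ± 1.20, adjusted p = 0.391). Post-caring uniparental males held 0.0816 and 0.155 CPM, within the range of their controls (−1.21 ± 1.65, adjusted p = 0.914).

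Between post-caring and control libraries, 0 and 0.0207% of loci were called in the biparental and the uniparental females, and 0.0104 and 0% in the biparental and the uniparental males, so these tests called almost nothing at any locus. In biparental males 19.9% of loci were lower without overlap. Pooled over the 8 libraries of each stage, post-caring Locus_56531 was 4.29-fold below control (3.50 to 5.30) and post-caring Locus_3293 was 1.46-fold below control (1.07 to 1.99). Without post-caring biparental female replicate 2, left out after its counts were seen, they were 11.2-fold (8.16 to 15.8) and 1.68-fold (1.21 to 2.35) below control. Locus_3293 lay near its control level after caring in biparental females, at 0.310 and 1.20 CPM, against 0.587 and 0.984 in controls (−0.07 ± 0.66, adjusted p = 0.973), and without post-caring replicate 2 the change was −1.33. Post-caring uniparental females held 0.967 and 0.578 CPM, below the controls without overlap (−1.05 ± 0.56, adjusted p = 0.791). In males the contig was at 0.146 and 0.412 CPM after biparental care, against 0.233 and 0.158 in controls (0.51 ± 0.97, adjusted p = 0.856). After uniparental care it was at 0.245 and 0.206 CPM, against 0.152 and 0.495 in control males (−0.45 ± 0.80, adjusted p = 0.938). Caring, control and post-caring comparisons share libraries, so they are not independent of each other.

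Across the 12 groups, the mean level of Locus_56531 ran from control biparental females (10.8 ± 4.08 CPM, SD, n = 2) through post-caring biparental females (2.86 ± 3.87), control uniparental females (2.22 ± 0.229) and control biparental males (2.08 ± 0.969). Then came post-caring uniparental females (0.518 ± 0.230), post-caring biparental males (0.281 ± 0.0874), control uniparental males (0.259 ± 0.279), post-caring uniparental males (0.118 ± 0.0516) and caring uniparental males (0.0197 ± 0.0279). The other 3 caring groups were at 0. At the limit of 3 counts over a group, that is 0.0548 CPM in uniparental females, 0.0916 in biparental females and 0.108 in biparental males. Control biparental females were separate from the next group, but post-caring biparental females overlapped control uniparental females, which overlapped control biparental males. Control uniparental males overlapped both groups beside them in this order.

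For Locus_3293 the order began with control uniparental females (1.62 ± 0.0418 CPM), which were separate from the next group. Control biparental females (0.786 ± 0.281), post-caring uniparental females (0.772 ± 0.275) and post-caring biparental females (0.756 ± 0.632) followed and overlapped each other. The 4 highest groups were all female and outside caring, and the 2 caring female groups ranked 10 and 11 of 12, with means of 0.117 ± 0.0738 CPM when uniparental and 0.0933 ± 0.0495 when biparental. Below the first place, each group overlapped the next in order.

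Control females held more counts of both contigs than control males in each social condition, though 0 of 6 sex differences were called for either contig by edgeR. At an unadjusted p under 0.05 in edgeR, 3 of 6 passed for each contig, and 13.6 to 31.6% of all loci passed in the 6 comparisons. The likelihood ratio test called 1 for each contig. DESeq2 called 1 of 3 with an adjusted p for Locus_56531 and 0 of 1 for Locus_3293. Over the 6 comparisons these tests called 3.4 to 20.8% and 4.3 to 22.7% of the loci they tested. In control biparental beetles the 2 female libraries held 108 and 167 counts of Locus_56531, against 18 and 35 in males (5.13-fold higher, 3.81 to 7.02, adjusted p = 0.111). In control uniparental beetles females held 45 and 35 counts, against 9 and 1 in males (8.01-fold higher, 4.13 to 17.3, adjusted p = 0.249). These comparisons called 8.51 and 1.96% of loci, and 28 and 21.4% were higher in females without overlap. For Locus_3293 the female over male log2 fold change in controls was 1.96 ± 0.84 when biparental (adjusted p = 0.168) and 2.35 ± 0.66 when uniparental (adjusted p = 0.0858), and neither pair of groups overlapped. The likelihood ratio test called the uniparental difference (adjusted p = 0.0129).

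During caring the sex difference of Locus_3293 was not resolved in either direction, in comparisons that called 11.3% of loci in biparental and 18.5% in uniparental beetles. Caring females over caring males gave 0.32 ± 1.37 when biparental (adjusted p = 0.923) and −0.77 ± 0.88 when uniparental (adjusted p = 0.594). Locus_56531 had no count in caring females and 1 in caring males. After caring, uniparental females were above males without overlap for both contigs, at log2 fold changes of 2.14 ± 1.42 for Locus_56531 (adjusted p = 0.421) and 1.75 ± 0.69 for Locus_3293 (adjusted p = 0.155). There 5.64% of loci were called and 29.5% were higher in females without overlap, and 10.1% were called in post-caring biparental beetles. In post-caring biparental beetles the female and male libraries overlapped for both, because female replicate 1 held 2 counts of Locus_56531 and 5 of Locus_3293, against 3 and 5 counts of Locus_56531 and 2 and 6 of Locus_3293 in males. The log2 fold change of Locus_56531 was 3.28 ± 1.16 (adjusted p = 0.0919). It was −1.17 without female replicate 2, and 4.21 and called without female replicate 1 (adjusted p = 0.00204), and with all libraries the likelihood ratio test and DESeq2 called it (adjusted p 0.0361 and 0.0422). The log2 fold change of Locus_3293 was 1.37 ± 0.76 (adjusted p = 0.272), and 0.11 without female replicate 2.

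Between the social conditions of control females the values of the contigs ran in opposite directions, a contrast that was not itself tested. Control uniparental females held 45 and 35 counts of Locus_56531, against 108 and 167 in control biparental females (log2 fold change −2.27 ± 0.83, 4.77-fold lower, 3.71 to 6.20, adjusted p = 0.0458). That comparison called 37.3% of all loci, 16.8% as lower, and the call was lost with any of the 4 libraries left out, at adjusted p between 0.0658 and 0.19, and by the likelihood ratio test and DESeq2, at 0.0679 and 0.0725. Control uniparental males were also lower, with 9 and 1 counts, against 18 and 35 in control biparental males (−2.89 ± 1.15, adjusted p = 0.0571), where 41.9% of loci were called. The likelihood ratio test and DESeq2 called this male difference, at adjusted p 0.0244 and 0.0263, where they called 43.5 and 43.7% of loci. Locus_3293 stood the other way, with 30 and 28 counts in control uniparental females, against 8 and 12 in control biparental females (1.05 ± 0.61, 2.09-fold higher, 1.24 to 3.67, adjusted p = 0.188), without overlap, as at 34.8% of all loci. Neither control group had met a carcass.

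At the later stages edgeR called neither contig between social conditions with all libraries in the fit. Post-caring uniparental females held 19 and 8 counts of Locus_56531, against 2 and 79 in post-caring biparental females, and the groups overlapped (−2.40 ± 0.96, adjusted p = 0.0609). Without biparental replicate 2 that change was 2.05, and without biparental replicate 1 it was −3.33 and called (adjusted p = 0.00107), so 1 library decides both its direction and its call. For Locus_3293 the uniparental over biparental log2 fold changes were 0.26 ± 1.11 in caring females, 1.34 ± 1.13 in caring males, 0.07 ± 0.61 in post-caring females and −0.31 ± 0.85 in post-caring males (adjusted p between 0.348 and 0.936). Without biparental replicate 2 the change in post-caring females was 1.33. In post-caring males Locus_56531 had 2 and 3 counts when uniparental, against 3 and 5 when biparental (−1.26 ± 1.72, adjusted p = 0.584).

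Within a library, the ratio of the 2 contigs needs no scaling. Locus_56531 had 1.5 and 1.25 times the counts of Locus_3293 in control uniparental females, against 13.5 and 13.9 times in control biparental females. In post-caring females the ratio was 0.704 and 0.615 in uniparental and 0.4 and 4.65 in biparental libraries. Control uniparental males held 9 and 1 counts of Locus_56531 beside 3 and 8 of Locus_3293, against ratios of 6 and 17.5 in control biparental males. In caring libraries the ratio was 0 wherever Locus_3293 had a count, except for 0.167 in caring uniparental male replicate 2. The contigs may differ in length, so a ratio is read only against the same ratio in another library.

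**Figure D3:**
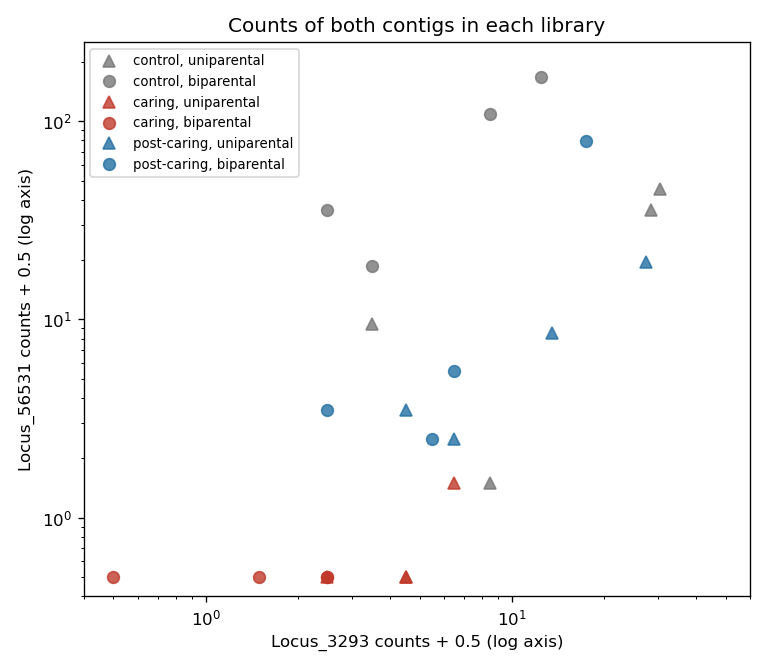
Counts of Locus_56531 against counts of Locus_3293 in each library, with 0.5 added and both axes logarithmic; colours are stages, triangles are uniparental and circles biparental libraries, and some caring points coincide. The caring libraries lie along the bottom, and sex is not marked. In females, the control biparental libraries held 13.5 and 13.9 counts of Locus_56531 for each count of Locus_3293. The control uniparental female libraries held 1.5 and 1.25.

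Post-caring biparental female replicate 2 held 79 counts of Locus_56531 and 17 of Locus_3293, against 2 and 5 in replicate 1. Its 14 fat body products took 22.1% of its counts, against 18.1% in replicate 1. The 4 loci of neurons and photoreceptors summed to 452 CPM, against 4330 CPM. Most of that sum comes from 1 rhodopsin locus, Locus_C909800, with a mean of 2111 CPM over all libraries. The part of these differences in the levels of the contigs was not tested.

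The share of fat body products also differed between stages. In females they took 5.571 to 9.408% of counts during caring, against 21.99 to 39.56% in controls and 17.47 to 22.14% after caring. In males they took 0.05295 to 0.1821% during caring, against 0.3092 to 0.8359% in controls and 0.1438 to 0.2194% after caring. Of the 14 loci, 2 fell in caring biparental females, where 2.92% of all loci were called lower. In caring uniparental females 2 fell and 2 rose, where 7.55% of all loci were called lower and 3.61% higher. In caring uniparental males 10 fell, where 2.82% were called lower, and in caring biparental males 0 were called, beside 0.0207% of all loci. Median log2 fold changes of the 14 loci in these groups were −2.87, −2.74, −6.33 and −1.70, in that order, beside −0.02, −0.01, 0 and −0.01 over all loci. The list was drawn from the study's gene table, so its direction is not independent evidence either. It spans Locus_C911252, a vitellogenin with a mean of 38414 CPM, and Locus_78404, a hexamerin with a mean of 0.274 CPM. Vitellogenin is the yolk protein precursor, and hexamerins are amino acid stores.

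In females, the caring libraries, with 5.571 to 9.408% fat body products, held no count of Locus_56531. The other female libraries, with 17.47 to 39.56%, all held counts of it. In males, the caring libraries, with 0.05295 to 0.1821%, held 1 count of Locus_56531. The 8 male libraries of the control and post-caring stages, with 0.1438 to 0.8359% fat body products, all held counts of it. The median log2 fold change of the 14 loci, females over males, was 10.1 in biparental and 5.94 in uniparental controls. Their share was therefore read only within a sex. In control uniparental males 8 of the 14 loci were called higher and 1 lower than in control biparental males, in a comparison that called 22.7% of all loci as higher and 19.2% as lower. The share of the 14 loci overlapped between these groups, at 0.836 and 0.438% in uniparental and 0.309 and 0.577% in biparental males, which held 9 and 1, against 18 and 35, counts of Locus_56531. With the 14 loci taken out before scaling, an alternative chosen after seeing the data, neither contig changed a call. That step changes the scaling and the loci tested, not the tissue in a library. The part of fat body content in the levels of the contigs was not tested.

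**Figure D4:**
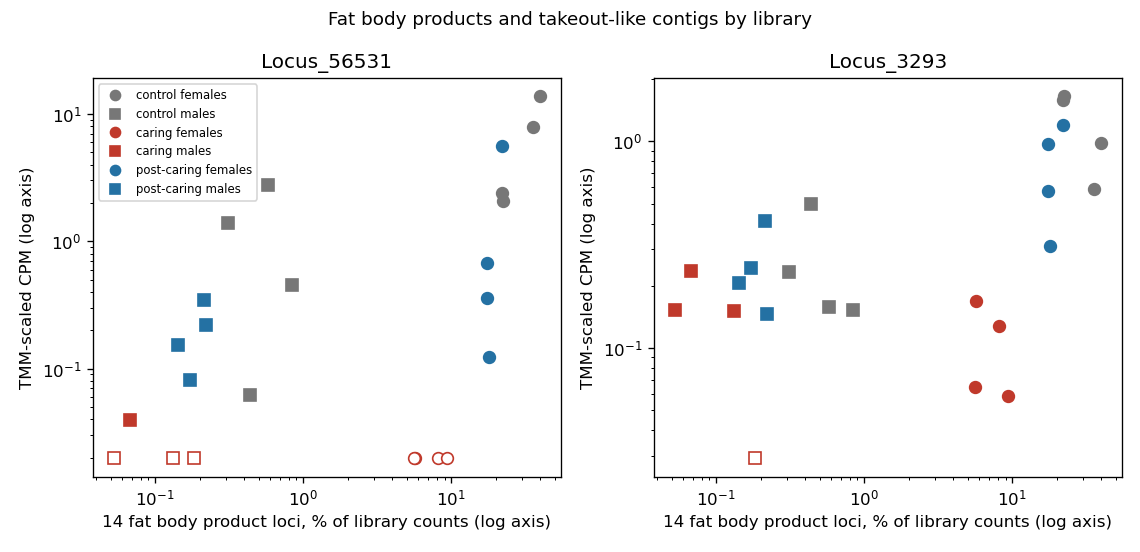
Level of each contig in TMM-scaled CPM against the share of library counts taken by 14 fat body product loci, both on log axes; circles are female and squares male libraries, and open symbols are libraries without a count, drawn below the lowest level. The 4 caring female libraries lie at 5.571 to 9.408%, below the other females, without a count of Locus_56531.

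Muscle genes and genes of neurons and photoreceptors were read in the same way. Of 11 muscle loci, 10 fell in caring uniparental females (median −1.43), where 7.55% of all loci were called lower. In caring biparental females 1 rose, where 5.01% of all loci were called higher. In caring uniparental males 1 fell, where 2.82% were called lower, and in caring biparental males 0 were called, beside 0.0207% of all loci. The muscle loci took 5.67 and 6.27% of counts in caring uniparental females, against 7.92 and 11.3% in their controls, and so were lower in a group where both contigs fell. In caring biparental females they took 12.3 and 9.65%, against 7.77 and 7.55% in controls. Of the 3 tested loci of neurons and photoreceptors, 0 were called by edgeR in the 4 caring comparisons with control, which called 0.0207 to 11.2% of all loci. Most counts of this list of 4 loci came from Locus_C909800, a rhodopsin with a mean of 2111 CPM. Its smallest member, Locus_C890046, a synaptic vesicle protein, had a mean of 0.164 CPM. The share of the list is therefore mainly that of 1 photoreceptor gene and does not measure nerve tissue. The 4 loci took 0.647 and 0.769% of counts in caring uniparental females, against 0.0699 and 0.133% in their controls. In caring biparental females they took 0.0892 and 0.175%, against 0.144 and 0.0354% in controls. No locus of these lists was at 0 in all libraries of a stage. The part of these tissues in the levels of the contigs was not tested.

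A search for the exact blast hits of the takeout-like entries found 5 loci, the 2 described so far and 3 more. Takeout-like contigs with any other best hit were not looked for. Of the 3, Locus_5224 and Locus_C892890 were singled out after their values were seen. A fall during caring was not called by edgeR at either of those that could be tested, Locus_5224 and Locus_C894552. Locus_5224 ranged from 2.13 to 13.1 CPM and had counts in every library. Its caring over control log2 fold changes were 0.87, 0.99, 0.16 and 0.25 in biparental females, biparental males, uniparental females and uniparental males (adjusted p 0.239, 0.586, 0.876 and 0.782), all above 0.

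Locus_C892890 has the same best hit as Locus_56531 and was too rare to test. It held 31 counts in control, 34 in caring and 32 in post-caring libraries, beside 418, 1 and 121 counts of Locus_56531 in the same libraries. Locus_C894552, named in the study's table after a takeout-like protein of the flour beetle *Tribolium castaneum*, ranged from 0.0515 to 2.04 CPM. Its caring over control log2 fold changes were 0.08, 3.07, 0.13 and −0.39 in biparental females, biparental males, uniparental females and uniparental males (adjusted p 0.985, 0.544, 0.98 and 0.886). Its highest value came from caring biparental male replicate 1 with 27 counts, against 1 count in replicate 2.

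Genes of juvenile hormone turnover were set beside the contigs. The best hit of Locus_C893690 is a *Tribolium castaneum* protein that the study's table lists first as uncharacterized. The same entry then names it juvenile hormone acid O-methyltransferase, an enzyme of hormone synthesis. Locus_C893690 was too rare to test and held 2 counts in control libraries, of which 6 of 8 were at 0. It held 42 counts in caring libraries, of which 1 of 8 was at 0, and 16 in post-caring libraries. Locus_71619 matches juvenile hormone esterase, which breaks the hormone down, and ranged from 24.6 to 157 CPM. It fell in caring uniparental females (log2 fold change −1.56 ± 0.31, adjusted p = 0.00381) and was not called in biparental females (−0.93 ± 0.31, adjusted p = 0.0736), uniparental males (−0.38 ± 0.30, adjusted p = 0.518) or biparental males (0.54 ± 0.30, adjusted p = 0.675). The likelihood ratio test and DESeq2 called it in biparental females as well, at adjusted p 0.0352 and 0.0384, where they called 10.8 and 10.3% of loci. Of this list of 2 genes, 1 was tested and 1 fell, in 1 of 4 groups, where 7.55% of all loci were called lower. Both entries stand in the table of loci that the study called, so the list is not independent evidence.

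The loci most like each contig were taken as those with the highest Pearson r of log2 CPM over the 24 libraries, which share stage, sex and social condition. Locus_C898212, whose hit is female neotenic-specific protein 6 of the termite *Cryptotermes secundus*, was nearest to Locus_56531 at r = 0.84, followed by Locus_15845, an organic cation transporter, at r = 0.80. Locus_49584, Locus_C890636 and Locus_1609 followed at r = 0.79 each. For Locus_3293 the nearest were Locus_49073 (r = 0.85), Locus_C902366 (r = 0.84), Locus_27303 (r = 0.83), Locus_C909058 (r = 0.83) and Locus_42810, a cytochrome P450 of family 26 by its hit (r = 0.81). The contigs were not each other's nearest loci: Locus_3293 ranked 27 for Locus_56531 and Locus_56531 ranked 56 for Locus_3293, at r = 0.72. By Spearman's rho, 1 and 2 of the 5 nearest loci stayed among the nearest 5 of Locus_56531 and Locus_3293.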

How the data were processed

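The authors trimmed the reads of 24 libraries with Trimmomatic 0.30, assembled a transcriptome without a genome, kept contigs with an arthropod blast hit, mapped with Bowtie2 and estimated counts per locus with RSEM. The authors deposited these expected counts, one file per library, without normalization. Reads that fit several contigs are split by RSEM, so between 33.3 and 48.9% of a library's values are not whole; values were rounded. Groups were taken from the sample titles. In R 4.3.3 with edgeR 4.0.16, filterByExpr (minimum count 10) left 9648 of 11403 loci. TMM scaling, a mean for each of 12 groups (12 residual degrees of freedom) and the quasi-likelihood test gave 29 comparisons, with Benjamini-Hochberg adjustment and edgeR's default prior count. The standard error is the log2 fold change divided by the square root of F. A group sum of 0 was set to 3 counts for limits, which cover the counting error of that group only. On simulated counts for caring over control uniparental females, the test called 190 of 200 loci raised 4-fold, all with a mean count of at least 10, and made 5 false calls over 9393 loci. Locus_3293 lay below that mean count, and both contigs were lower during caring, not higher. The simulated recovery therefore does not give the power for these contigs.

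Replicates of a group differed beyond counting noise (chi-square per degree of freedom 18.7 to 74.4), so no library was counted as a duplicate. Named loci were both contigs, the other takeout-like entry, 2 juvenile hormone genes, the 5 loci most like each contig, and the largest and smallest of each marker list. The contigs, lists and tests were chosen with earlier results of these data known. Gene names came from the study's table of 866 loci, whose fold changes and p-values were not used. Alternatives were the likelihood ratio test, DESeq2 1.42.0, RLE scaling, no filter, a replicate block, a prior count of 2, 1 social condition alone, and each library left out; library totals without scaling and removal of fat body products, and stage sums without 1 library, were chosen after seeing the data. Contig sequences were not used here.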

Additional observations from a re-analysis of the deposited data

How the results depend on the processing

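Of 50 results of the 2 contigs in each setting, RLE scaling, no filter on low counts, a prior count of 2, a replicate block and removal of the 14 fat body products changed no call and no direction. A fold change against libraries at 0 still depends on the prior count: Locus_56531 in caring over control biparental females was −10.64 in the fit as reported and −6.65 with a prior count of 2. Replicate numbers were not used to pair libraries in the main fit. The correlation of deviations from the group means was between −0.34 and 0.44 (median 0.05) over 66 pairs of groups. It was above 0.1 in 21 of them, which does not exclude pairing. In both male control groups the titles and the files number the replicates in opposite ways. With the replicate block, the fold change of Locus_56531 in caring over control biparental females was −10.65 (edgeR adjusted p = 0.00301).

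The likelihood ratio test also called Locus_56531 in caring over control biparental males (−8.27), caring over post-caring uniparental females (−6.28), post-caring biparental females over males (3.31) and uniparental over biparental control males (−2.94). It also called Locus_3293 in caring over control (−3.00) and caring over post-caring (−2.93) biparental females and in control uniparental females over males (2.35). DESeq2 also called those of Locus_56531 (−7.29, −6.28, 3.30 and −3.02). With 1 social condition fitted alone, Locus_56531 lost its call in caring over post-caring biparental females (−8.29, adjusted p = 0.188) and gained one in uniparental females (−6.61), and both contigs gained one in control uniparental females over males (2.98 and 2.34). The likelihood ratio test, DESeq2 and library totals without scaling lost the call of Locus_56531 between uniparental and biparental control females (adjusted p 0.0679, 0.0725 and 0.0801). Library totals without scaling raised the median log2 fold change of all loci by caring from −0.02 to 0.56 in biparental and from −0.01 to 0.66 in uniparental females. The share of calls that were higher was then 98.2 in place of 63.1% and 96.7 in place of 32.3%. With these totals Locus_3293 was called in caring over control biparental females (−2.42), and its post-caring change in biparental females was 0.37 (adjusted p = 0.677), the other direction. Locus_5224 was called too (1.43). The cause was not tested.

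The number of loci called differed by more than 1.5 times in 14 of 29 comparisons with DESeq2, 15 with the likelihood ratio test, 13 with library totals, 4 with the replicate block and 14 of 18 with 1 social condition alone. In caring over control biparental females it was 241 with 1 social condition alone and 4524 with library totals, against 765 as reported. In caring over post-caring biparental females it was 478, 454 and 67 by the likelihood ratio test, DESeq2 and 1 social condition alone, against 284. In uniparental females library totals gave 5975 over control and 1364 over post-caring, against 1076 and 805.

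A library left alone in its group was assumed to vary like the other groups. Locus_56531 in caring over control biparental females kept its call throughout (adjusted p 0.0118 to 0.05). Its other log2 fold changes with a lost or gained call or a turned direction ranged from −8.43 to −8.25 in caring over control uniparental females, −9.65 to −4.27 in caring over post-caring biparental females, −1.94 to 0.81 in post-caring over control uniparental males, −1.17 to 4.21 in post-caring biparental females over males, −3.33 to 2.05 in post-caring uniparental over biparental females, and −2.64 to −1.84 in control uniparental over biparental females. Those of Locus_3293 ranged, for caring over control, from −4.51 to −3.21 in uniparental females and −1.32 to 0.35 in uniparental males. For caring over post-caring they ranged from −3.58 to −1.69 in biparental females, −3.47 to −2.17 in uniparental females and −0.53 to 0.070 in uniparental males. For post-caring over control they ranged from −1.33 to 0.57 in biparental females, −0.40 to 1.05 in biparental males and −1.12 to 0.55 in uniparental males. The difference of caring changes ranged from −2.67 to 1.91 between biparental sexes and −0.31 to 4.27 between social conditions in males. Uniparental over biparental values ranged from −0.36 to 1.31 in control males, −0.47 to 0.86 in caring females, −0.56 to 1.33 in post-caring females and −0.85 to 0.61 in post-caring males. Locus_5224 ranged from −0.25 to 0.71 in caring over control uniparental females. Few counts in males limit these comparisons.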
